A study of Homo sapiens with 4 samples.

Results

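The RNA described here is the light-strand transcript of human mitochondrial DNA across 3 regions, the stretches opposite MT-CO2, opposite MT-ATP8, MT-ATP6 and MT-CO3, and opposite MT-ND3. The regions were chosen by position in the deposited light-strand files, as positions 8301 to 8984, 6580 to 8204 (the middle region below) and 6166 to 6511 in that order. They hold 684, 1625 and 346 positions, which makes 2655 of the 16500 positions of a light-strand file. A light-strand position pairs with the heavy-strand file's position that gives a sum of 16569, and the bases of the 2 files were complementary at 16432 of 16432 such pairs. The genome build of the files is not given in the sources used here, and the gene bounds of the GRCh38.p14 gene table met the 5 start codons after their numbering was lowered by 1.

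The samples are mitochondria of HEK-293T cells, a line from human embryonic kidney, isolated and probed with dimethyl sulfate (DMS) at 1% for 5 min at 37 °C. There are 2 groups of 2 libraries, wild type (WT 1 and WT 2) and LRPPRC knockout (KO 1 and KO 2), each pair labelled as biological replicates. All 4 libraries received DMS, and no background was subtracted because untreated mitochondria were not analysed here. Whether the knockout is 1 clone is not given in the sources used here, and LRPPRC itself is a nuclear gene whose RNA was not analysed here. Each value is the fraction of reads that carry a mismatch at a position, printed below in percent. Read counts do not come with the fractions, which leaves the depth unknown and allows no interval from counting.

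Both strands of mitochondrial DNA are transcribed as long RNAs that are then cut at the tRNAs. The transcript that lies opposite these 5 genes codes for nothing there and is antisense to their mRNAs. In human mitochondria such antisense RNA is normally removed by the degradosome, the helicase SUV3 with the nuclease PNPase, with help from the RNA-binding protein GRSF1. LRPPRC works with its partner SLIRP as a binding protein of the heavy-strand mRNAs and is needed for their stability and polyadenylation. MT-CO2 and MT-CO3 code for subunits of cytochrome c oxidase, MT-ATP8 and MT-ATP6 for subunits of ATP synthase from overlapping reading frames, and MT-ND3 for a subunit of complex I. DMS methylates unpaired A and C, and the TGIRT-III reverse transcriptase then leaves a mismatch in the cDNA. A mismatch at A or C of the light-strand file can therefore come from DMS on the antisense RNA. A mismatch at G or T lies opposite a C or A of the mRNA, where a read of the sense strand would carry it.

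Antisense sequences with a strong or a weak DMS signal are shown first. They are windows of 50 nt written 5′ to 3′ along the antisense RNA with T for U. Capitals mark A and C positions whose knockout mean was at or above the 75th percentile of its region, which was 2.85% opposite MT-CO2, 3.17% opposite MT-ATP8, MT-ATP6 and MT-CO3 and 2.96% opposite MT-ND3. The 3 windows with the highest knockout mean of each region come first, then the 2 windows that rose most in the knockout after centring. The window with the lowest knockout mean of the middle region (1.61%) comes last and was added after the values were seen. A window opposite MT-CO2, light 8501 to 8550, had a lower knockout mean (1.58%) and is not printed.
Opposite MT-CO2, light 8601 to 8650, paired with chrM:7919-7968 of the heavy-strand file: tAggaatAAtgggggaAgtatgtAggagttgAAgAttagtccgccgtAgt
Opposite MT-ATP6, light 7451 to 7500, paired with chrM:9069-9118: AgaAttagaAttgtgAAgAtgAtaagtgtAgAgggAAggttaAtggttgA
Opposite MT-ND3, light 6251 to 6300, paired with chrM:10269-10318: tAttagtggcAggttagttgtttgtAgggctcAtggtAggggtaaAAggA
Opposite MT-CO2, light 8351 to 8400, paired with chrM:8169-8218: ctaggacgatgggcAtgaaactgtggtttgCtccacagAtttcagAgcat
Opposite MT-CO2, light 8401 to 8450, paired with chrM:8119-8168: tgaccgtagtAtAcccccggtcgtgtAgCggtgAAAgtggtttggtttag
Opposite MT-CO3, light 7151 to 7200, paired with chrM:9369-9418: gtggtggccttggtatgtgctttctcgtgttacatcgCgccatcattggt

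In wild type, mismatches at A and C were not the larger class opposite MT-CO2 or opposite MT-ATP8, MT-ATP6 and MT-CO3. Means were taken over positions whose mean fraction over the 4 libraries lay between 0.002 and 0.3. Opposite MT-CO2 the mean at A and C was 1.02% in WT 1, 0.99% in WT 2, 2.01% in KO 1 and 2.02% in KO 2. At G and T of the same RNA it was 2.80% and 2.83% in WT 1 and WT 2 and 0.784% and 0.791% in KO 1 and KO 2. Both wild-type libraries were thus low at A and C and high at G and T, both knockout libraries the other way round, and the groups did not overlap. The light-strand files of the wild-type libraries therefore do not read as antisense RNA alone in this stretch, which goes against its label.

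Opposite MT-ATP8, MT-ATP6 and MT-CO3 the mean at A and C was 1.40% in WT 1, 1.38% in WT 2, 2.30% in KO 1 and 2.31% in KO 2. The mean at G and T there was 2.61% in WT 1, 2.65% in WT 2, 0.587% in KO 1 and 0.588% in KO 2. The pattern was that of the MT-CO2 stretch, again without overlap between groups. Opposite MT-ND3 the mean at A and C was 2.39%, 2.38%, 2.21% and 2.22% in WT 1, WT 2, KO 1 and KO 2. At G and T it was 0.819%, 0.783%, 0.521% and 0.530% in the same order. Here A and C were the larger class in all 4 libraries, and both classes were slightly lower in the knockout libraries.

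**Figure D1:**
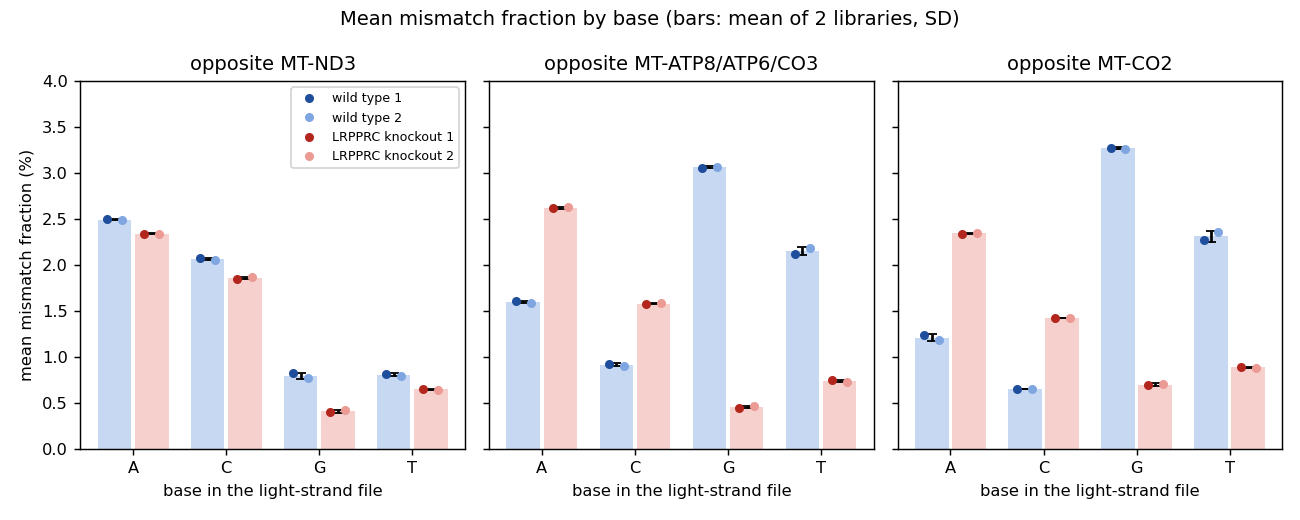
Mean mismatch fraction in percent (vertical axis) at A, C, G and T of the light-strand file (horizontal axis) in the 3 regions, with bars for the mean of 2 libraries, error bars for the SD and points for single libraries. In wild type G and T stand above A and C opposite MT-CO2 (2.81% against 1.01%) and opposite MT-ATP8, MT-ATP6 and MT-CO3 (2.63% against 1.39%), and below them opposite MT-ND3 (0.801% against 2.38%).

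The ratio of the A and C mean to the G and T mean needs no scaling between libraries. It was 0.358 ± 0.0118 (SD, n = 2) in wild type and 2.56 ± 0.0119 (SD, n = 2) in the knockout opposite MT-CO2. Opposite MT-ATP8, MT-ATP6 and MT-CO3 it was 0.527 ± 0.0114 and 3.92 ± 0.00778, and opposite MT-ND3 it was 2.98 ± 0.0860 and 4.22 ± 0.0404, all as SD with n = 2. Each of the 3 differences was many times the spread between replicates. The two-sided exact permutation test gave p = 0.333 for each. This is the smallest p that it allows for 2 libraries against 2, so no permutation test of a region value can pass 0.05.

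Within the middle region the 3 genes differed in wild type. The ratio was 0.975 ± 0.000622 opposite MT-ATP8, 0.460 ± 0.0133 opposite MT-ATP6 and 0.514 ± 0.0122 opposite MT-CO3 (SD, n = 2 each). In the knockout the same ratios were 3.46, 4.07 and 4.07. The RNA opposite MT-ATP8, at the 3′ end of this stretch of antisense RNA, thus had the ratio nearest to 1 in wild type and the lowest ratio of the 3 in the knockout. Set beside its neighbours along the genome, the ratio went from 0.280 to 2.55 opposite MT-CO1 and from 0.738 to 4.42 opposite MT-ND4L and MT-ND4, so MT-ND3 sat between stretches with wild-type ratios below 1.

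Whether mismatches at G and T followed those of the mRNA was asked position by position. For each library the light-strand fraction at G and T was set against the heavy-strand fraction at the paired C and A. Taking the heavy-strand file as the mRNA alone, a slope of 100% would be that of reads that all came from the sense strand, and a slope near 0 that of reads without it. Opposite MT-CO2 the slope was 77.3% in WT 1, 79.9% in WT 2, 14.0% in KO 1 and 13.9% in KO 2, across 410 positions. In the middle region, opposite MT-ATP8, MT-ATP6 and MT-CO3, it was 68.6%, 69.2%, 1.12% and 1.97%, across 1015 positions. Opposite MT-ND3 it was 9.24%, 7.65%, -2.19% and -0.812%, across 204 positions. Within each region the wild-type slopes were above the knockout slopes, without overlap (exact permutation p = 0.333 each, two-sided, the smallest possible). Opposite MT-ND3, however, the wild-type slopes were below the knockout slopes opposite MT-CO2.

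Over the same pairs of positions Pearson's r was 0.855 in wild-type and 0.405 in knockout libraries opposite MT-CO2, as means of 2 libraries. For the middle region it was 0.753 and 0.0435, and opposite MT-ND3 it was 0.369 and -0.0479. These correlations are descriptions over positions that share a library, its depth and its base composition. By gene the wild-type slope was 41.8% opposite MT-ATP8, 69.9% opposite MT-ATP6 and 75.1% opposite MT-CO3, against 88.1% opposite MT-CO1 and 54.8% opposite MT-ND4L and MT-ND4. In the knockout the mRNA side itself was also lower, with a heavy-strand mean at the paired C and A of 2.41% against 3.36% in wild type for MT-CO2, 2.31% against 3.59% for MT-ATP8, MT-ATP6 and MT-CO3, and 2.30% against 3.36% for MT-ND3.

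**Figure D2:**
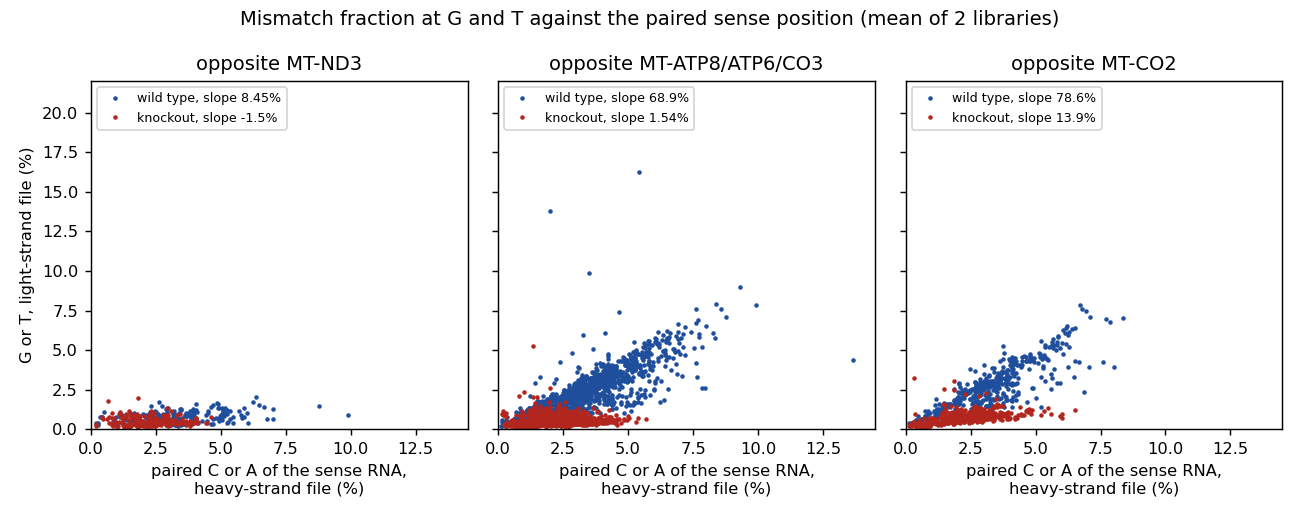
Mismatch fraction in percent at each tested G and T of the light-strand file (vertical axis) against the paired C or A of the sense RNA in the heavy-strand file (horizontal axis), each point the mean of 2 libraries. Wild-type points rise with the sense RNA opposite MT-CO2 (mean slope 78.6%) and opposite MT-ATP8, MT-ATP6 and MT-CO3 (68.9%), while knockout points lie close to the horizontal axis (13.9% and 1.54%).

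Tested by limma over all 9757 tested G and T positions of the light-strand file, on log2(fraction + 0.001) without centring, G and T fell in the knockout at most positions of the 3 regions, although opposite MT-ND3 the direction turned with median centring or quantile normalization. With Benjamini-Hochberg adjusted p below 0.05, 1463 of 1621 members were lower and 29 higher, where 72.4% of all tested G and T positions were called lower and 2.28% higher. Opposite MT-CO2 381 of 408 were lower, opposite MT-ATP8, MT-ATP6 and MT-CO3 955 of 1014, and opposite MT-ND3 127 of 199. The median log2 change was -1.69 over the members and -1.04 over all tested positions. The median log2 value of the libraries at G and T differed by -1.23 between groups. Relative to that shift 936 members were lower and 405 higher, where 33.9% of all tested positions were called lower and 44% higher. Opposite MT-ND3 159 of 199 were then higher and 6 lower. With quantile normalization 106 of 199 were higher and 19 lower there, against 39.1% and 33.2% of all tested positions.

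The 2 members at G and T that fell most exceeded their mRNA in wild type. The T at 7046, opposite MT-CO3, had 15.3% in WT 1, 17.2% in WT 2, 0.558% in KO 1 and 0.626% in KO 2. Both wild-type libraries were far above both knockout libraries, and the paired A of the mRNA had a wild-type mean of 5.42%. The T at 7390, opposite MT-ATP6, had 14.3%, 13.3%, 0.467% and 0.541%, with 1.99% at the paired A of the mRNA in wild type. The log2 changes were -4.56 and -4.53 (limma adjusted p = 2.1e-05 for both). The 2 that rose most were T positions inside runs of T. The T at 8337, opposite MT-CO2 and next to the A at 8338 described below, had 0.432%, 0.365%, 3.30% and 3.16%, and the T at 7137, opposite MT-CO3, had 0.214%, 0.198%, 1.02% and 0.984%.

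At A and C the question was where the signal of the light-strand files differed between wild type and knockout. The median log2 value over the 5544 tested A and C positions of the light-strand file was 0.54 higher in the knockout libraries, so changes were tested after centring each library on that median. By limma with adjusted p below 0.05, 417 of 1004 members were higher and 364 lower, where 24.6% of all tested A and C positions were called higher and 50.7% lower. The members' own shares were 41.5% higher and 36.3% lower. Without centring 663 were higher and 117 lower, where 46.2% of all tested positions were called higher and 14.3% lower. With quantile normalization 487 were higher and 303 lower, against 30.1% and 43.3% of all tested positions. The members left out of this test had a mean fraction under 0.002 (7 opposite MT-CO2, 12 in the middle region and 1 opposite MT-ND3) or above 0.3 (1 C in the middle region).

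Opposite MT-CO2 more A and C positions rose than fell under each scaling. Of 267 tested A and C positions, 141 rose and 56 fell relative to the library median, and 213 rose and 11 fell without centring. Over all tested A and C positions 24.6% were called higher and 50.7% lower after centring, and 46.2% and 14.3% without. The median log2 change after centring was 0.39 (-0.32 over all tested positions). The A at 8413 rose most, with 0.349% in WT 1, 0.302% in WT 2, 4.00% in KO 1 and 3.56% in KO 2. Both knockout libraries were far above both wild-type libraries, with a knockout mean 11.6 times the wild-type mean (log2 change 2.65 ± 0.0885 SE, adjusted p = 0.000197). The C at 8570 had 0.284%, 0.3%, 3.14% and 3.23%, and the C at 8660 had 0.294%, 0.263%, 2.99% and 3.13%, with log2 changes of 2.52 for both. At all 3 positions the mRNA's paired base was low in both groups, between 0.201% and 0.529%.

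The highest knockout means of this region were at A positions. The A at 8396, near the 3′ end of the 8351 to 8400 window, had 0.661%, 0.569%, 5.63% and 5.78%. The A at 8338 had 1.44%, 1.34%, 5.67% and 5.58%. Both rose, by log2 changes of 2.48 and 1.40. The positions that fell most lay at the 5′ edge of the region and in its middle. The C at 8301, the first position of the region and opposite the last base of MT-CO2, had 6.77%, 8.72%, 2.57% and 2.45%, with a log2 change of -2.12, and its paired mRNA base 5.40% in wild type. The A at 8303 had 3.33%, 3.81%, 1.59% and 1.44%, and the C at 8674 had 1.69%, 1.63%, 0.741% and 0.723%. In all of these the direction was kept without centring.

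In windows of 50 nt every one of the 13 windows opposite MT-CO2 had a higher mean in the knockout. After centring 11 of 13 were called higher and 2 lower, where 28.3% of all 307 windows were called higher and 62.2% lower. Over the 3 regions 28 of 51 windows were higher and 17 lower. The window 8351 to 8400, whose sequence is above, had 0.525% in WT 1, 0.469% in WT 2, 1.99% in KO 1 and 2.01% in KO 2. The neighbouring window 8401 to 8450 had 0.809%, 0.790%, 2.04% and 2.07%. Both rose most among the members, with centred log2 changes of 1.12 ± 0.0484 and 1.02 ± 0.0412 (SE; limma adjusted p = 3.5e-07 and 3.4e-07). The size of the first depended on the lower limit of the mean fraction, which left 17 of its 23 A and C positions tested. With no lower limit the changes were 0.71 and 1.02, so the order of these windows turned. G and T of the same windows went from 1.96% to 0.614% and from 3.57% to 0.867%.

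**Figure D3:**
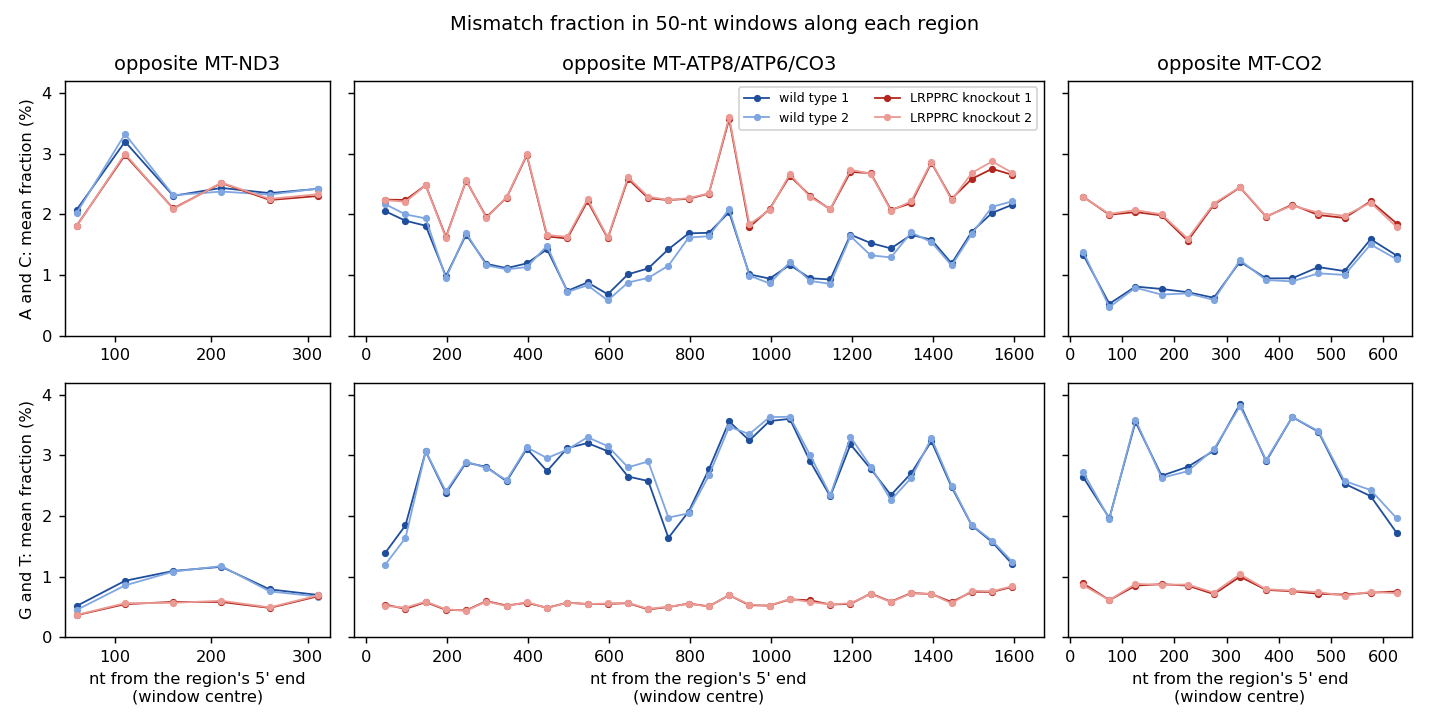
Mean mismatch fraction in percent at A and C (upper row) and at G and T (lower row) in 50-nt windows, against the distance in nt from each region's 5′ end on the antisense RNA, with a line for each of the 4 libraries. The knockout lines lie above the wild-type lines at A and C in 13 of 13 windows opposite MT-CO2 and 32 of 32 in the middle region but in 1 of 6 opposite MT-ND3, and at G and T the wild-type window means run from 0.484% to 1.17% opposite MT-ND3 and from 1.84% to 3.83% opposite MT-CO2.

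Opposite MT-ATP8, MT-ATP6 and MT-CO3, 276 of 596 tested A and C positions rose and 167 fell relative to the library median, with a median log2 change of 0.14. Without centring 442 rose and 48 fell. Over all tested A and C positions 24.6% were called higher and 50.7% lower after centring, and 46.2% and 14.3% without. By gene after centring, 134 rose and 49 fell of 244 opposite MT-ATP6, and 136 rose and 100 fell of 313 opposite MT-CO3. Opposite MT-ATP8 14 rose and 22 fell of 57 (24.6% and 38.6%). The balance opposite MT-ATP8 turned to 41 higher and 6 lower without centring. Of the 32 windows 17 were called higher and 9 lower after centring, where 28.3% of all windows were called higher and 62.2% lower.

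Both A positions that rose most opposite MT-ATP6 lay within a few bases of each other. The A at 7695 had 0.337% in WT 1, 0.227% in WT 2, 2.50% in KO 1 and 2.47% in KO 2. The A at 7689 had 0.467%, 0.404%, 3.47% and 3.38%. The A at 7128, opposite MT-CO3, had 0.464%, 0.449%, 3.62% and 3.68%. Their log2 changes after centring were 2.23, 2.18 and 2.21. Groups without overlap were a condition for naming a rise or fall at A and C. Of all tested A and C positions 82.3% met it, and of the members of the 3 regions 91.1%.

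The largest fall at a single position of this region exceeded its largest rise. The C at 6702, opposite MT-CO3, had 5.57% in WT 1, 7.31% in WT 2, 0.804% in KO 1 and 0.832% in KO 2, and the fitted log2 difference was -3.36 with an SE of 0.150 (limma adjusted p = 0.000268). The paired G of the mRNA had 0.430% in wild-type and 0.479% in knockout libraries. The A at 7675, opposite MT-ATP6, had 2.52%, 2.36%, 0.574% and 0.555%. The A at 7087, opposite MT-CO3 and inside a run of A, had 0.886%, 0.897%, 0.138% and 0.102%. All 3 fell without centring as well.

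The highest knockout mean among the tested members, which leave out the 1 C above the upper limit, was at the C at 8029, which lies opposite the overlap of MT-ATP8 and MT-ATP6. It had 1.75% in WT 1, 1.77% in WT 2, 7.38% in KO 1 and 7.54% in KO 2, with the knockout libraries well above the others. Its predicted unpaired probability was 0.939. At the other named positions with the highest knockout means of their regions this probability ran from 0.288 (A at 8338) to 0.982 (A at 6660). At the named rises of A and C it ran from 0.0910 (C at 8660) to 0.775 (C at 8570), and at the named falls from 0.00508 (C at 6702) to 0.865 (A at 7087). The A at 6660, opposite MT-CO3, was high in all 4 libraries, at 5.28%, 5.66%, 6.71% and 6.54%. Its direction depended on the scaling, with a log2 change of -0.27 after centring (adjusted p = 0.0128, and 0.0771 without KO 2) and 0.27 without.

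Opposite MT-ND3 no tested A or C position rose and 141 of 141 fell relative to the library median, with log2 changes from -1.21 to -0.28. This stands beside the 50.7% called lower and 24.6% called higher of all tested positions. Without centring 58 fell, 8 rose and 75 did not pass the threshold, beside the 14.3% lower and 46.2% higher of all tested positions, and the median log2 change was -0.12, so most of the centred fall was the shift of the library median itself. All 6 windows were called lower after centring, where 62.2% of all windows were called lower and 28.3% higher. Without it 5 were lower and 0 higher, where 24.1% of all windows were called lower and 56.4% higher. The window 6301 to 6350 had 2.31%, 2.32%, 2.10% and 2.09% in WT 1, WT 2, KO 1 and KO 2. The window 6201 to 6250 had 2.08%, 2.03%, 1.82% and 1.81%. The wild-type libraries were above the knockout libraries in both, with knockout means 0.906 and 0.882 times the wild-type means.

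Among single positions of this region, the A at 6317 had 1.60%, 1.80%, 1.07% and 1.00% in WT 1, WT 2, KO 1 and KO 2, the largest fall. The A at 6166, the first position of the region, had 3.8%, 3.8%, 2.54% and 2.50%. The C at 6195 had 0.355%, 0.375%, 0.232% and 0.206%. These 3 fell with and without centring. The highest knockout mean was at the C at 6210, with 6.06%, 6.08%, 5.17% and 5.23%. The A at 6499 came next, with 4.82%, 4.84%, 5.26% and 5.03%, and its log2 change was -0.45 after centring and 0.09 without (adjusted p = 0.0948 without).

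As whole intervals, 26 of 28 stretches opposite heavy-strand genes were called in either direction after centring (92.9%), 5 higher and 21 lower. The interval opposite MT-CO2 rose by 0.45 ± 0.0178 (log2, SE; limma adjusted p = 0.000149) and that opposite MT-ATP6 by 0.20 ± 0.0181 (adjusted p = 0.00121). The interval opposite MT-CO3 rose by 0.11 ± 0.0167 (adjusted p = 0.00596), a call lost without KO 1 (0.10, adjusted p = 0.0706) or without KO 2 (0.12, adjusted p = 0.0501). The interval opposite MT-ATP8 had -0.09 ± 0.0252 (adjusted p = 0.0346), which was lost without KO 1 (adjusted p = 0.138) or KO 2 (adjusted p = 0.132) and turned to 0.45 without centring and 0.05 with quantile normalization. The interval opposite MT-ND3 fell by 0.66 ± 0.0207 (adjusted p = 0.00011). Without centring the same 5 intervals had log2 changes of 0.99, 0.75, 0.65, 0.45 and -0.12 in the order of MT-CO2, MT-ATP6, MT-CO3, MT-ATP8 and MT-ND3. Opposite the 7 other protein-coding genes the centred changes ran from -0.57 (MT-ND5) to 0.69 (MT-CO1), with 2 called higher and 4 lower. Without centring these 2 ends were -0.02 and 1.23. A rise like that opposite MT-CO2 and a fall like that opposite MT-ND3 were thus also seen elsewhere.

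Differences between regions within a library are free of any scaling between libraries. The mean log2 value at A and C opposite MT-CO2 minus that opposite MT-ND3 was -1.25 in WT 1, -1.31 in WT 2, -0.17 in KO 1 and -0.17 in KO 2. The A and C signal opposite MT-CO2 was thus below that opposite MT-ND3 in wild type and close to it in the knockout, a change of 1.11, and these values include any sense reads. For the middle region minus MT-ND3 the values were -0.73, -0.77, 0.04 and 0.04, a change of 0.79. For MT-CO2 minus the middle region they were -0.52, -0.53, -0.21 and -0.21, a change of 0.32. None of these groups overlapped (exact permutation p = 0.333 each, two-sided, the smallest possible).

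Opposite MT-CO2 and in the middle region the mean at A and C was higher in the knockout and that at G and T lower. Opposite MT-ND3 both were lower. Values on possible sense reads are therefore given beside the A and C signal. In wild type the G and T mean exceeded the A and C mean in 13 of 13 windows opposite MT-CO2, 28 of 32 in the middle region and 0 of 6 opposite MT-ND3, and in the knockout in 0 of 51. For a correction, the slope was taken as the share of sense reads, an assumption that was not tested. The intercept of the fit was left out. That share of the paired mRNA fraction was taken off each A and C value and the rest divided by 1 minus the share. Slopes and results below 0 were set to 0. Single values could change far, as at the C at 6702, which went from 6.44% to 19.8% in wild type. The corrected mean opposite MT-CO2 was 2.05% ± 0.0868 in wild-type and 2.24% ± 0.00188 in knockout libraries (SD, n = 2). For the middle region the order turned, to 2.62% ± 0.0244 in wild-type and 2.33% ± 0.0169 in knockout libraries. By gene this held opposite MT-CO3 (3.19% and 2.18%), while opposite MT-ATP8 (2.23% and 2.52%) and MT-ATP6 (2.37% and 2.49%) the knockout libraries stayed higher, without overlap. Opposite MT-ND3 it was 2.51% ± 0.0239 and 2.22% ± 0.00516. Opposite MT-ND3 and MT-ATP8 the knockout slopes were below 0, so the correction changed the wild-type values only. After this correction the knockout mean was 1.09 times the wild-type mean opposite MT-CO2, where the uncorrected means were 2.01% and 1.01%. The part of sense reads in the changes of these means and at single positions was not tested.

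**Figure D4:**
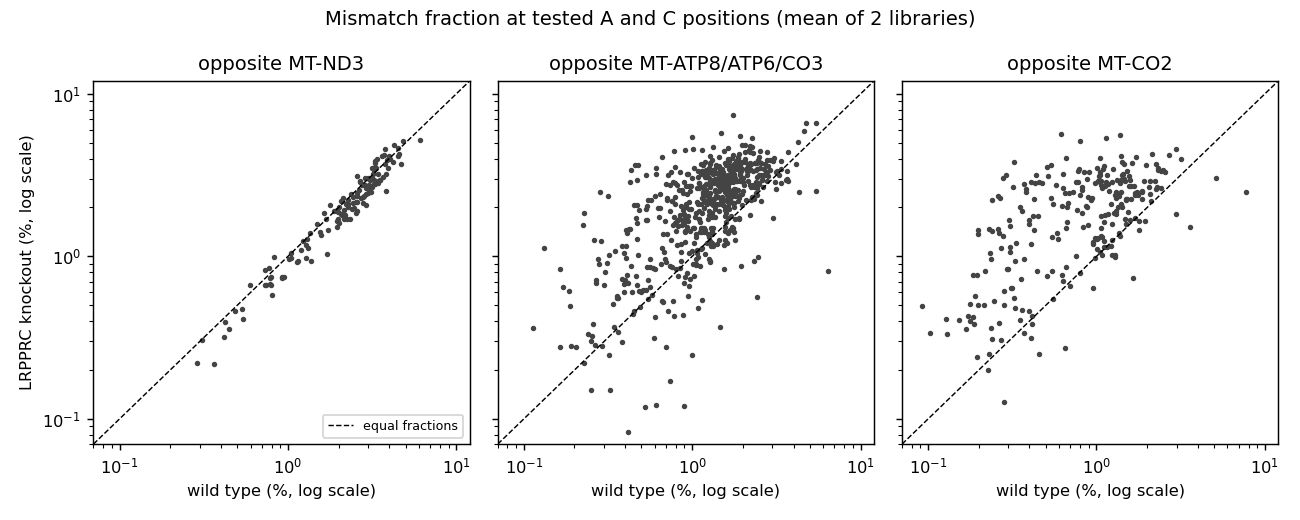
Knockout against wild-type mismatch fraction in percent at each tested A and C position of the 3 regions, both axes on a log scale, each point the mean of 2 libraries and the dashed line marking equal fractions. Points opposite MT-ND3 follow the line (r from 0.974 to 0.980 between libraries of the 2 groups), while those opposite MT-CO2 (0.599 to 0.629) and opposite MT-ATP8, MT-ATP6 and MT-CO3 (0.624 to 0.677) scatter above it.

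The profile along the RNA was kept between groups opposite MT-ND3 and less so in the other regions. Across the 141 tested A and C positions opposite MT-ND3, Pearson's r between a wild-type and a knockout library was 0.974 to 0.980. Across 267 positions opposite MT-CO2 it was 0.599 to 0.629, and across 596 in the middle region 0.624 to 0.677. Replicates of one group had r of at least 0.981 in each region. With the sense-read correction the values were 0.493 to 0.550 opposite MT-CO2 and 0.600 to 0.656 in the middle region. The correction also lowered r between the wild-type replicates, from 0.990 to 0.953 and from 0.981 to 0.948, and set some wild-type values to 0. The corrected values therefore cannot show whether the profiles came closer to each other. Opposite MT-CO1 r was 0.562 to 0.574 and opposite MT-ND4L and MT-ND4 it was 0.756 to 0.790. These are descriptions over positions that share library, depth and base composition.

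Predicted folding of the antisense RNA was then set beside the signal. Unpaired probabilities were predicted from sequence alone with RNAplfold (window 240 nt, span 160 nt, 37 °C). Opposite MT-CO2 Spearman's rho between fraction and unpaired probability over 267 A and C positions was 0.471 in WT 1, 0.459 in WT 2, 0.648 in KO 1 and 0.646 in KO 2. The knockout libraries followed the prediction more closely there. For the middle region rho was 0.430, 0.428, 0.465 and 0.465 over 596 positions. Opposite MT-ND3 it was 0.467, 0.491, 0.457 and 0.469 over 141 positions, where the groups overlapped. These rho values include the difference between A and C, and for C alone opposite MT-CO2 the mean rho was 0.152 in wild-type and 0.604 in knockout libraries over 96 positions. With a mean fraction of at least 0.01 the rho opposite MT-CO2 was 0.118 in wild-type and 0.398 in knockout libraries.

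The same can be read from levels. Opposite MT-CO2 the 45 A and C positions with an unpaired probability over 0.8 had a mean of 1.5% ± 0.0550 in wild-type and 3.00% ± 0.0103 in knockout libraries, against 0.615% ± 0.0207 and 1.12% ± 0.00429 at 86 positions under 0.2 (SD, n = 2 libraries). Opposite MT-ND3 the 28 positions over 0.8 had 2.85% and 2.65%, and the 33 under 0.2 had 1.31% and 1.17%. In the middle region the 108 positions over 0.8 had 1.75% and 2.83%, and the 174 under 0.2 had 0.992% and 1.47%. In all 3 regions and both groups the positions predicted unpaired had the higher mean.

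**Figure D5:**
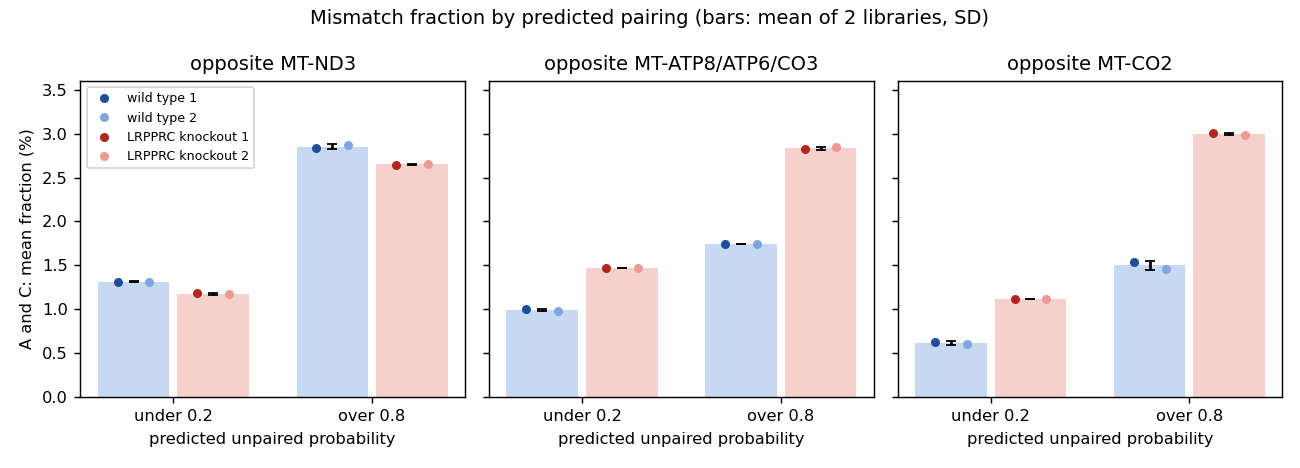
Mean mismatch fraction in percent at A and C positions whose predicted unpaired probability was under 0.2 or over 0.8 (horizontal axis), by region, with bars for the mean of 2 libraries, error bars for the SD and points for single libraries. Positions over 0.8 stand above those under 0.2 in each panel, for example 3.00% against 1.12% in the knockout opposite MT-CO2.

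Each printed window was also folded alone with RNAfold, and not all of them followed this order base by base. In the window 8351 to 8400 the longest predicted stem pairs ctgtgg, starting at 8371, with ccacag, ending at 8388, and the window's energy was -15.8 kcal/mol. All 4 capitals of that window lie at predicted unpaired bases, 1 of them in the loop that this stem closes. Of its 23 A and C positions 17 were tested, and the means cover only these. Its 8 unpaired tested positions had a knockout mean of 3.13% and its 9 paired tested ones 0.996%. In wild type these means were 0.780% and 0.246%. The window 7451 to 7500, with the highest knockout mean, was predicted with no base pair at all and holds 13 capitals among 19 A and C positions. Its means were 2.04% in WT 1, 2.09% in WT 2, 3.57% in KO 1 and 3.61% in KO 2.

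The other printed windows differed in how far they followed the prediction. In the window 8601 to 8650 6 of 9 capitals were predicted unpaired, with knockout means of 3.01% at unpaired and 1.83% at paired A and C positions. In the window 6251 to 6300 6 of 8 capitals were unpaired, with 3.09% and 2.83%. The window 8401 to 8450 went the other way, with 2 of 7 capitals unpaired and knockout means of 1.75% at its 9 unpaired and 2.35% at its 9 paired positions. The window 7151 to 7200, the lowest of the middle region, had 0.683%, 0.581%, 1.61% and 1.62% in WT 1, WT 2, KO 1 and KO 2. Its longest stem joins gtggtggc, starting at 7151, to gccatcat, ending at 7196. Its 4 unpaired positions had a knockout mean of 1.89% and its 12 paired ones 1.52%, although its single capital lies at a paired base. Windows that are not printed were folded as well. The window 6301 to 6350 also went the other way, with knockout means of 1.93% at unpaired and 2.50% at paired positions. In the window 8501 to 8550 both means were 1.58%. The window 6201 to 6250 followed the prediction, with 2.00% at unpaired and 0.458% at paired positions.

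The bases next to a position went with its level. In the knockout the 241 A positions followed by G had a mean of 3.00% ± 0.0220 (SD, n = 2), against 2.25% for A followed by A, 2.19% by C and 2.26% by T. In wild type A followed by G was also the highest of the 4, at 1.81%. Among C positions those preceded by another C had the lowest knockout mean, 0.724% over 56 positions, against 2.38% after an A. The same order held in wild type, with 0.509% and 1.27%.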

How the data were processed

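The files hold fractions as the authors deposited them, and per the file headers a position has the mismatches, the mismatches with deletions and the base, in 1 file per strand and library (8 files). Per the series' design text, reads were aligned to the mitochondrial genome and modelled with DREEM and RNAstructure; the submitters' processing notes name cutadapt and Bowtie2, with versions and settings not given in the sources used here. Sense reads in a light-strand file would lower its A and C mismatches and raise those at G and T.

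Positions with a mean fraction of 0.002 to 0.3 were tested on log2(fraction + 0.001) with limma 3.58.1 in R 4.3.3 (lmFit, eBayes), with Benjamini-Hochberg adjustment over the whole light-strand file. A and C values were centred on each library's median, G and T values were not. Region values were compared by exact permutation. Folding used ViennaRNA 2.7.2. The fit was tested on simulated data. P-values measure the spread between the labelled replicates, whose separate cultures are not described.

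Positions were named by rule. Per region these were the 3 largest rises, the 3 largest falls and the 2 highest knockout means at A and C. The rises and falls at A and C were taken among called positions whose groups did not overlap. Over all regions the 2 largest falls and rises at G and T were named. Opposite MT-ND3 no A or C position rose after centring. The regions and lists were chosen with earlier results of these data known. Alternatives covered the pseudocount, limits, scaling, deletions, base, replicate block, sense-read correction and leaving out each library. Depth is unknown.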

Additional observations from a re-analysis of the deposited data

How the results depend on the processing

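Counts of members depended on the scaling. At A and C no centring gave 663 higher and 117 lower positions and 44 higher and 5 lower windows, while C positions only, with fewer members tested, gave 129 and 119 positions and 6 and 3 windows. At G and T median centring gave 405 higher and 936 lower and quantile normalization 392 and 875. A mean fraction of at least 0.01, which tests fewer positions, gave 17 higher G and T positions and 10 lower A and C windows. The interval opposite MT-ATP8 was lost with a pseudocount of 0.01 (-0.032) and turned with a mean fraction of at least 0.01 (0.079), quantile normalization (0.054), no centring (0.45) and C positions only (0.087); the cause was not tested. Leaving out 1 library gave -0.12 to -0.063 there and 0.10 to 0.12 opposite MT-CO3, lost without either knockout library. The A at 6660 turned with quantile normalization (0.22) and no centring (0.27), and the A at 6499 likewise (0.052 and 0.089). The sense-read correction turned the knockout minus wild-type mean at A and C of the middle region to -0.295 percentage points, through MT-CO3 (-1.01), while MT-ATP8 (0.288) and MT-ATP6 (0.124) did not turn.

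Spearman's rho with unpaired probability over the 3 regions, 0.439 in wild type and 0.512 in the knockout, moved to 0.462 and 0.532 with no lower limit, 0.226 and 0.304 with a mean fraction of at least 0.01, 0.431 and 0.505 with deletions, 0.207 and 0.284 for A only, 0.290 and 0.563 for C only and 0.356 and 0.510 with the sense-read correction. Of 343 values of named positions 337 kept their direction and side of the threshold, as did 127 of 127 of named windows and 65 of 75 of intervals. With the replicate block the MT-ATP8 interval (-0.089, adjusted p = 0.0659) was lost, and no other interval and no named position or window changed its call; over all members A and C positions went to 409 higher and 363 lower and G and T positions to 1441 lower; same-numbered libraries did not deviate together (r = 0.0449 over 5544 positions). Without read counts, depth limits cannot be stated.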

Other observations

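Deletions, which come added to the mismatches in a second column, went the way of the mismatches at T and A opposite MT-CO2 but not at C. At T positions opposite MT-CO2 the mean deletion share was 0.204% in WT 1, 0.208% in WT 2, 0.0446% in KO 1 and 0.0444% in KO 2. At A positions of the same stretch it was 0.0997%, 0.0980%, 0.164% and 0.171%. The wild-type libraries were thus higher at T and lower at A, without overlap. At T positions of the middle region the means were 0.244% (wild type) and 0.0317% (knockout), and opposite MT-ND3 0.0721% and 0.0331%.

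The place of a base within the codons of the opposite mRNA went with little. For A positions the knockout mean was 2.51% opposite the first codon base, 2.59% opposite the second and 2.37% opposite the third, and for C positions 1.60%, 1.38% and 1.65%. The wild-type means for A were 1.62%, 1.68% and 1.60%, and for C 0.938%, 0.937% and 1.08%. No test was made of these values.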
